A study of Rattus norvegicus with 14 samples.

Results

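Genes of fatty acid synthesis and desaturation were examined in rat liver on 3 diets that differed in magnesium: a magnesium-deficient diet, a magnesium-supplemented diet and a standard diet. The genes were taken by name, and every probe set carrying their symbol was included. Of the 10 names, 8 had a probe set under that symbol (Srebf1, Acly, Me1, Acaca, Fasn, Scd, Scd2 and Gpam), out of 4736 genes with a symbol on the array. Fads1, a desaturase of polyunsaturated fatty acids, and Thrsp, a nuclear protein that promotes lipogenesis, had no probe set with that symbol and were not analysed here. The 8 genes had 25 probe sets among the 8740 that are not Affymetrix controls. Of these, 18 passed a filter on dim signals and were tested. Another probe set carried the symbols of Scd and Scd2 together with those of other desaturases, and no gene was named from it.

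Fatty acid synthesis starts in the cytosol, where citrate exported from mitochondria is split to acetyl-CoA by the product of Acly. Acetyl-CoA carboxylase, encoded by Acaca, makes malonyl-CoA, and fatty acid synthase, encoded by Fasn, builds palmitate from it with NADPH that comes in part from malic enzyme, encoded by Me1. Stearoyl-CoA desaturases, encoded in the rat by Scd and Scd2, turn saturated into monounsaturated fatty acids, and the mitochondrial acyltransferase encoded by Gpam attaches acyl chains to glycerol phosphate. In liver this pathway is known for its strong response to feeding, to carbohydrate and to insulin, through the transcription factor SREBP encoded by Srebf1 among others.

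RNA of the left lateral liver lobe, collected at necropsy, gave 14 Affymetrix arrays: 4 of the deficient diet, 5 of the supplemented diet and 5 of the standard diet. Arrays are called here by the number in their title, which is 11 to 14 on the deficient, 1 to 5 on the supplemented and 6 to 10 on the standard diet. How much magnesium each diet held, how long it was fed and the strain, sex and age of the rats are not stated in the labels. Nothing in them says that the arrays are separate animals, so every p-value measures the spread between these samples, which may be technical.

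Signals are given in array units after quantile normalisation, with a floor at 3.93 units, and differences are on the log2 scale, where 1 unit is a doubling. Median signals before normalisation lay between 18.0 and 34.4 units. The ratio of the 3' to the 5' control probe set of Gapdh, a sign of RNA quality, differed between diets. On the log2 scale it averaged 1.84 ± 0.65 (SD, n = 4) on the deficient, 0.71 ± 0.49 (SD, n = 5) on the supplemented and 1.64 ± 0.61 (SD, n = 5) on the standard diet. Supplemented array 5 had the lowest ratio, and deficient array 13 and standard array 10 the highest. Hepatocyte markers were present on every array: the summed signal of the 7 tested markers of 8 was 37118 to 40081 units on the deficient, 36316 to 41031 units on the supplemented and 37515 to 41578 units on the standard diet.

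No member gene passed the test of a difference between diets. With limma, 0 of the 18 tested probe sets passed an adjusted p under 0.05 in any of the 3 comparisons. Of the 5132 probe sets tested over the array, 0% were called between the deficient and the standard diet, 0% between the supplemented and the standard diet and 0.0195% between the deficient and the supplemented diet. Some of the genes varied together among arrays of the same diet: 3 of 28 pairs of members passed that test. Each read by its brightest tested probe set, Fasn, Acly and Scd were high and low on the same arrays. Pnpla3, a lipid droplet protein gene that is no member, followed that Fasn set more closely than any other tested gene outside the members. The other tested Fasn set followed the brighter one with r = 0.445 within diets and was not used in the test of pairs. For Fasn the pattern therefore rests on the brighter set only.

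Sequences around a start of transcription of the genes in that pattern are shown because the levels of these genes moved together. Scd2, the desaturase neighbour of Scd, is set beside them because the correlation of its brightest probe set with them was near 0. That set was dim and was not followed by the other tested sets of Scd2 (r = 0.025 and 0.109 within diets). Each sequence is a 300-base window of RefSeq (rat build GRCr8) from 250 bases before to 50 bases after a start of transcription. It is written 5′ to 3′ on the strand of the gene. The annotated genes Acly and Scd reach beyond their windows on the 5′ side, to bases 85964605 and 253232101. Their windows thus lie at starts inside the gene, while that of Scd2 holds the gene start (253118377). Capitals mark matches, on either strand, to CCAAT (the box bound by NF-Y) and GGGCGG (the GC box bound by Sp factors), read as ATTGG and CCGCCC where the match lies on the other strand. RefSeq windows were found for 8 of the 10 names, and Fasn and Acaca are named only.
Acly (chr10:85963582-85963881, minus strand): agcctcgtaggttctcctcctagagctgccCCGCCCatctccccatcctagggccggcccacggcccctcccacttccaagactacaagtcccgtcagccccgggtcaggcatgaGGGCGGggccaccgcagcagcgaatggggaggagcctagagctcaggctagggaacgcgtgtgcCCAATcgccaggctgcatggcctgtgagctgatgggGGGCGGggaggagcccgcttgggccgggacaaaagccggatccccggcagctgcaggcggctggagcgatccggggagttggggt
Scd (chr1:253231682-253231981, minus strand): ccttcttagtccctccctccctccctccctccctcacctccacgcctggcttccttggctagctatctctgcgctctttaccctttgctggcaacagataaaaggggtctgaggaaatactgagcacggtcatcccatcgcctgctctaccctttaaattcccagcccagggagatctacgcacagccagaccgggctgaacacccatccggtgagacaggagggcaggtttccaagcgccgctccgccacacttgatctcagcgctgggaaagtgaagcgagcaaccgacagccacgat
Pnpla3 (chr7:117173278-117173577, plus strand): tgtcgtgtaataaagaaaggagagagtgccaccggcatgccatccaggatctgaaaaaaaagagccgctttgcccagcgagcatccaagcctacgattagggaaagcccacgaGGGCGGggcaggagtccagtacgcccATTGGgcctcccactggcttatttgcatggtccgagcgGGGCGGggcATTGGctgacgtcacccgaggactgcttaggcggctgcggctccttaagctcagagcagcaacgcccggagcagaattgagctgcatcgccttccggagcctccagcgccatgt
Scd2 (chr1:253118127-253118426, plus strand): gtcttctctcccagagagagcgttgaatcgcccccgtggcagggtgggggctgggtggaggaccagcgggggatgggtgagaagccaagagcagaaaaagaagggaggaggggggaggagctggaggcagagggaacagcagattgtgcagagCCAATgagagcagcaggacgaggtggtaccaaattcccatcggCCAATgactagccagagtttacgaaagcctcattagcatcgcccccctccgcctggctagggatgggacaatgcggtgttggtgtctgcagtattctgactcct

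The window of Acly held 1 CCAAT and 3 GGGCGG matches, that of Pnpla3 held 2 of each, that of Scd2 held 2 CCAAT matches and that of Scd held 0 of either. Of all 33469 rat promoter windows of this length, 37.5% held CCAAT and 33.1% held GGGCGG. The core of the sterol regulatory element, TCACNCCAC, which SREBP binds, was in 1.12% of all windows, and the E-box CACGTG was in 6.42%. Neither was found in the windows of the 8 names, nor in that of Pnpla3. A missing match says only that these letters are not in this stretch.

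Srebf1, the regulator, had 1 probe set (L16995_at). Its signal was 214, 276, 358 and 316 units on deficient arrays 11 to 14. On supplemented arrays 1 to 5 it was 268, 240.3, 282, 182 and 769 units. On standard arrays 6 to 10 it was 521, 290.0, 256, 278 and 496 units. The ranges of the 3 diets overlapped, with supplemented array 5 above the 13 others and standard arrays 6 and 10 next. The difference was -0.30 ± 0.36 (SE) for deficient minus standard and -0.21 ± 0.34 for supplemented minus standard, both smaller than their error.

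Acly, which supplies acetyl-CoA, was measured by 3 tested probe sets. The brightest (J05210_g_at) read 5452, 4734, 5826 and 3518 units on deficient arrays 11 to 14, 4160.0, 3762, 4362, 5316 and 5857 units on supplemented arrays 1 to 5, and 5730.5, 2856, 3214, 3852 and 6647 units on standard arrays 6 to 10. The widest span was within the standard diet, at 2.33-fold, with arrays 6 and 10 high and arrays 7 and 8 low. The deficient minus standard difference was 0.18 ± 0.24 (SE), the supplemented minus standard difference 0.13 ± 0.22 and the deficient minus supplemented difference 0.05 ± 0.24. The 95% intervals of these 3 differences lay within -0.45 and 0.68. A second probe set of the same transcript (J05210_at) followed the first within diets with r = 0.902 (Spearman's rho 0.912, permutation adjusted p = 0.00263 over 15 pairs of probe sets). The dim L27075_g_at, between 5.04 and 92.8 units, did so with r = 0.360 (adjusted p = 0.400).

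Me1, a source of NADPH, had 5 probe sets, of which 4 were tested. With the brightest (rc_AI171506_g_at) the signal was 225, 199, 118 and 124 units on the deficient arrays 11 to 14. On the supplemented arrays 1 to 5 it was 222, 195, 129, 148 and 144 units. On the standard arrays 6 to 10 it was 305, 104, 42.0, 624 and 125 units. The standard diet spanned 14.8-fold and enclosed the other diets, which spanned 1.92-fold (deficient) and 1.72-fold (supplemented). The means were nearly equal, at 7.32 ± 0.48 (SD, n = 4) on the deficient, 7.36 ± 0.33 (SD, n = 5) on the supplemented and 7.32 ± 1.496 (SD, n = 5) on the standard diet on the log2 scale. The same contrast of standard arrays 9 and 8 was read by the other tested probe sets: 543 against 42.1 units (rc_AI008020_at), 355 against 46.5 units (rc_AI171506_at) and 414 against 11.4 units (M26594_at). Within diets the 4 sets correlated with r between 0.756 and 0.946, and between 0.415 and 0.869 when the 2 arrays farthest from the median were left out. The fifth set (rc_AI171067_at) did not pass the filter and sat at the floor on 3 of 14 arrays.

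Acaca, which makes malonyl-CoA, had 1 dim probe set (J03808_at). It read 15.6, 21.2, 17.9 and 25.4 units on deficient arrays 11 to 14, 47.6, 19.8, 24.7, 32.2 and 44.5 units on supplemented arrays 1 to 5, and 27.3, 12.4, 16.9, 27.8 and 17.1 units on standard arrays 6 to 10. Supplemented arrays 1, 4 and 5 lay above the other 11 arrays, while supplemented arrays 2 and 3 lay within the range of the other diets. The supplemented minus standard difference was 0.72 ± 0.30 (SE; limma unadjusted p = 0.0285, adjusted p = 0.514), or 1.65-fold with a 95% interval of 1.06 to 2.56. The deficient minus supplemented difference was -0.70 ± 0.32 (limma unadjusted p = 0.0431, adjusted p = 0.372). Both missed the adjusted threshold. With the Gapdh ratio as a covariate they were 0.38 and -0.28.

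Fasn, the synthase, was read by 2 probe sets that did not agree. The brighter (M76767_s_at) gave 1998, 1881, 1939 and 766 units on deficient arrays 11 to 14, 1372, 949, 1399, 1919 and 3109 units on supplemented arrays 1 to 5, and 3088, 1064, 848, 1785 and 2807 units on standard arrays 6 to 10. The diets overlapped widely, and its supplemented minus standard difference was -0.07 ± 0.40 (SE; limma adjusted p = 0.973). The deficient minus standard difference was -0.14 ± 0.42, or 0.907-fold with a 95% interval of 0.485 to 1.70.

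The other Fasn probe set (X13527cds_s_at) gave 389.6, 520.1, 269 and 491 units on deficient arrays 11 to 14, 1146, 496, 728, 1059 and 1022 units on supplemented arrays 1 to 5, and 853, 328, 195, 689 and 279 units on standard arrays 6 to 10. Supplemented arrays 1, 4 and 5 stood above the other 11, and supplemented array 2 below standard arrays 6 and 9. Here the supplemented minus standard difference was 1.08 ± 0.37 (SE; limma unadjusted p = 0.0109, adjusted p = 0.491), and the deficient minus supplemented difference was -1.07 ± 0.40 (limma unadjusted p = 0.0160, adjusted p = 0.312). Within diets the Fasn probe sets correlated with r = 0.445 (rho 0.284, permutation adjusted p = 0.252). With the Gapdh ratio as a covariate these differences of X13527cds_s_at were 0.57 and -0.44.

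Scd, the main desaturase of rodent liver, varied less than the other 7 genes, each taken by its brightest tested probe set. J02585_at read 6093, 6498, 5884 and 4539 units on deficient arrays 11 to 14, 6135, 4850.3, 4956, 5072 and 7178 units on supplemented arrays 1 to 5, and 6246, 4734, 4686, 5275 and 6572 units on standard arrays 6 to 10. After quantile normalisation the 14 arrays spanned 1.58-fold, and the within-diet SD of 0.23 lay at the 12.7th percentile of all tested probe sets. The span depended on the scaling. On the log2 scale it ran from 12.15 (deficient array 14) to 12.81 (supplemented array 5) after normalisation. As deposited it ran from 12.02 (supplemented array 3) to 13.21 (supplemented array 5). The deficient minus standard difference was 0.07 ± 0.15 (SE), the smallest error among the 8 genes, with a 95% interval for the fold of 0.842 to 1.30. The dimmer rc_AI175764_s_at spanned 5.78-fold, from 102 units (standard array 8) to 591 units (supplemented array 5), and followed the brighter set within diets (r = 0.755, rho 0.670, permutation adjusted p = 0.00949).

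Scd2, in adult rodents better known from brain and other tissues outside the liver, was dim. The probe set with the highest mean (S75730_at) read 10.1, 35.0, 30.9 and 26.8 units on deficient arrays 11 to 14, 35.3, 39.1, 38.5, 44.9 and 75.4 units on supplemented arrays 1 to 5, and 50.3, 36.8, 53.9, 34.9 and 30.8 units on standard arrays 6 to 10. The 4 deficient arrays lay below the 5 supplemented ones without overlap, and overlapped the standard ones. The share of all tested probe sets that lack overlap was not counted, so no weight is put on this. Deficient minus supplemented was -0.94 ± 0.34 (SE; limma unadjusted p = 0.0146, adjusted p = 0.307), and deficient minus standard was -0.79 ± 0.34 (limma unadjusted p = 0.0347, adjusted p = 0.999). Without deficient array 11 they were -0.55 and -0.40.

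The other tested probe sets of Scd2 showed another pattern among arrays. Their deficient minus supplemented differences were -0.52 ± 0.62 (SE; rc_AA875269_at) and -0.60 ± 0.63 (M15114_g_at), of the same sign as in S75730_at. For deficient minus standard they were 0.10 ± 0.62 and -0.37 ± 0.63, so the sets differed in sign there. Signals of rc_AA875269_at were 37.9, 38.1, 21.5 and 18.1 units on the deficient, 18.4, 66.8, 57.6, 36.6 and 36.6 units on the supplemented and 152, 27.2, 10.7, 14.1 and 17.5 units on the standard arrays, in array order. Standard array 6 was the highest there and also in M15114_g_at, at 108 units. Those 2 sets followed each other within diets (r = 0.930, rho 0.890, permutation adjusted p = 0.00263), but S75730_at correlated with them at r = 0.025 and 0.109. The remaining 3 sets were too dim to test. M15114_at was at the floor on 14 of 14 arrays, U67995_s_at on 11 and AF036761_at on 3. Scd and Scd2 are close relatives, and signal that a probe set takes from the other gene cannot be told apart here. The probe set with several desaturase symbols ran from 200.4 to 284 units on the deficient, from 206 to 998 units on the supplemented and from 115 to 369 units on the standard arrays.

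Gpam, which starts glycerolipid synthesis, was read by 2 tested probe sets with opposite directions. U36773_at gave 13.2, 14.8, 21.9 and 37.9 units on deficient arrays 11 to 14, 129, 55.9, 69.9, 38.3 and 42.5 units on supplemented arrays 1 to 5, and 86.7, 19.7, 13.3, 88.7 and 12.1 units on standard arrays 6 to 10. The deficient and supplemented arrays did not overlap, though deficient array 14 and supplemented array 4 were nearly equal. As for Scd2, no weight is put on this, since the share over all tested probe sets was not counted. The standard arrays covered most of both ranges. The deficient minus supplemented difference was -1.60 ± 0.61 (SE; limma unadjusted p = 0.0189, adjusted p = 0.327), or 0.330-fold with a 95% interval of 0.135 to 0.810. With the Gapdh ratio as a covariate it was -0.82, and with the beta-actin ratio -0.62.

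U36772_at, the other tested Gpam set, gave 35.4, 33.6, 41.6 and 42.7 units on deficient arrays 11 to 14, 49.7, 39.9, 49.4, 16.3 and 5.59 units on supplemented arrays 1 to 5, and 82.4, 26.9, 11.9, 44.0 and 24.7 units on standard arrays 6 to 10. Its deficient minus supplemented difference was 0.64 ± 0.61 (SE; limma adjusted p = 0.673), with supplemented array 5 the lowest of the 14. Within diets the 2 sets still went together (r = 0.695, rho 0.833, permutation adjusted p = 0.00949). The other 3 Gpam sets were at the floor on 4, 5 and 7 of 14 arrays and were not tested.

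**Figure D1:**
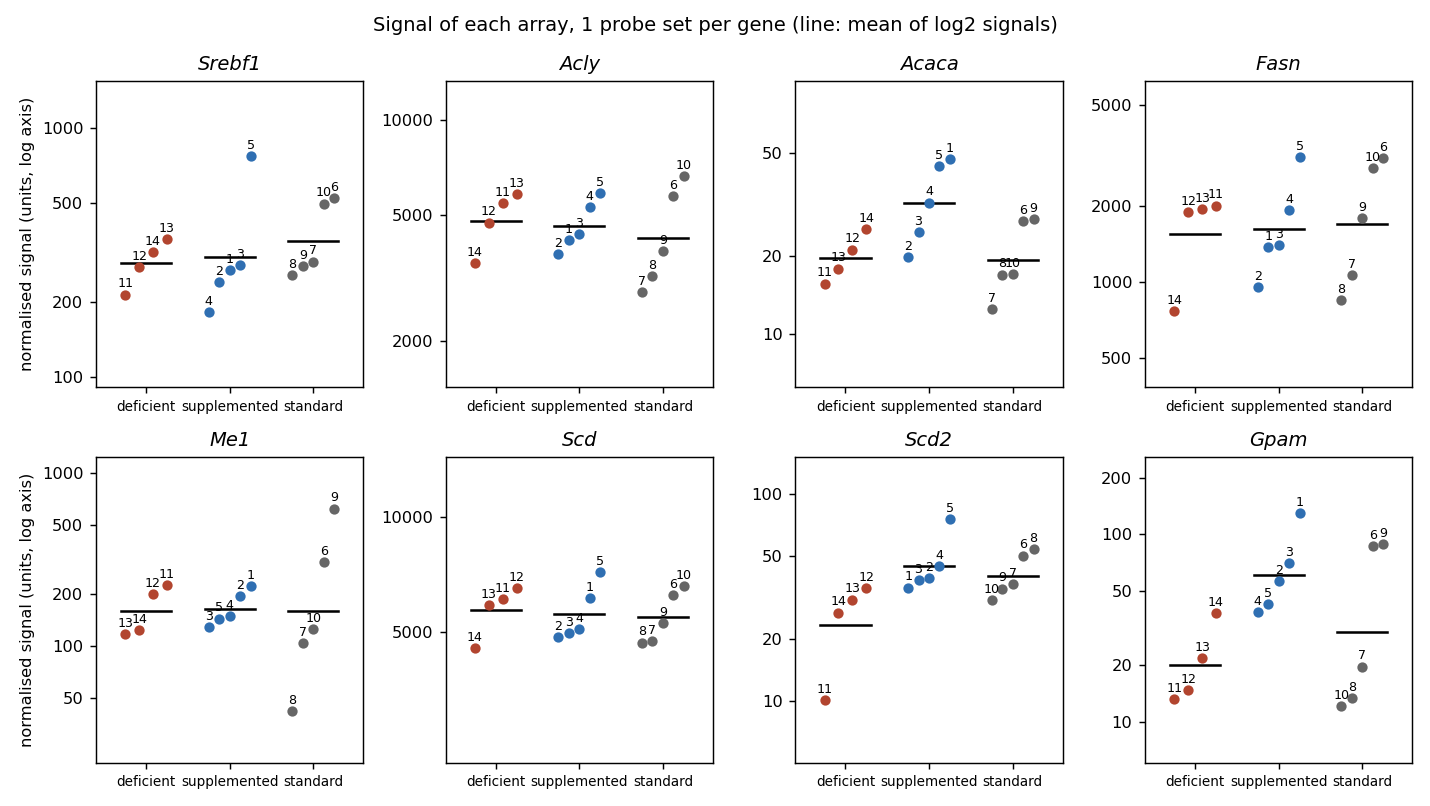
Normalised signal (array units, log axis) of the probe set that stands for each of the 8 genes, with each point an array labelled by its number and each line the mean of the log2 signals of a diet. The points of the 3 diets overlap in every panel for at least 1 pair of diets, Me1 spans 14.8-fold within the standard diet, and Scd spans 1.58-fold over the 14 arrays.

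Between the deficient and the standard diet, which asks what the magnesium-deficient diet did to these genes, 4 of the 8 genes were higher and 4 lower, with 1 probe set standing for each. Their median difference was -0.07, against 0.00067 over all 5132 tested probe sets. At an unadjusted p under 0.05 there was 1 gene, Scd2, where 3.00% of all tested probe sets passed that level. limma called 0 of 5132 probe sets, and 154 were at an unadjusted p under 0.05.

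Between the supplemented and the standard diet, which asks the same of added magnesium, 6 of the 8 genes were higher and 2 lower. The median was 0.09, against -0.02 over all tested probe sets. Acaca was the 1 gene at an unadjusted p under 0.05, where 8.90% of all probe sets were. Over the 18 probe sets 14 were higher and 4 lower, with 2 at that level, Acaca and X13527cds_s_at of Fasn. limma called 0 of 5132 probe sets in this comparison, and 457 were at an unadjusted p under 0.05.

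Between the deficient and the supplemented diet, which sets the altered diets against each other, 2 of the 8 genes were higher and 6 lower. The median was -0.08, against 0.02 over all tested probe sets. Acaca, Scd2 and Gpam were at an unadjusted p under 0.05, where 12.9% of all probe sets were. In S75730_at of Scd2 and U36773_at of Gpam the arrays of these diets did not overlap, while in the other tested sets of both genes they did. How many of all tested probe sets lack overlap was not counted, so no weight is put on it. The smallest adjusted p of any of the 18 sets was 0.307, for S75730_at of Scd2. This comparison shares its samples with the 2 others, so the 3 are not independent.

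The F-test over the 3 diets called 0 of the 18 probe sets, where 0.0195% of all were called, and gave 2 member sets, S75730_at of Scd2 and X13527cds_s_at of Fasn, an unadjusted p under 0.05, where 8.96% of all were. In these bulk samples fewer cells of a type and less RNA per cell cannot be told apart. The tested sets of Acaca, Scd2 and Gpam were dim, but were above the floor on 14 of 14 arrays each. If each array is centred on its median instead of quantile normalised, the median of all tested sets moves to -0.11 for supplemented minus standard and to 0.17 for deficient minus supplemented. On that scale the supplemented minus standard differences of Acly and Scd were -0.15 and -0.28.

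**Figure D2:**
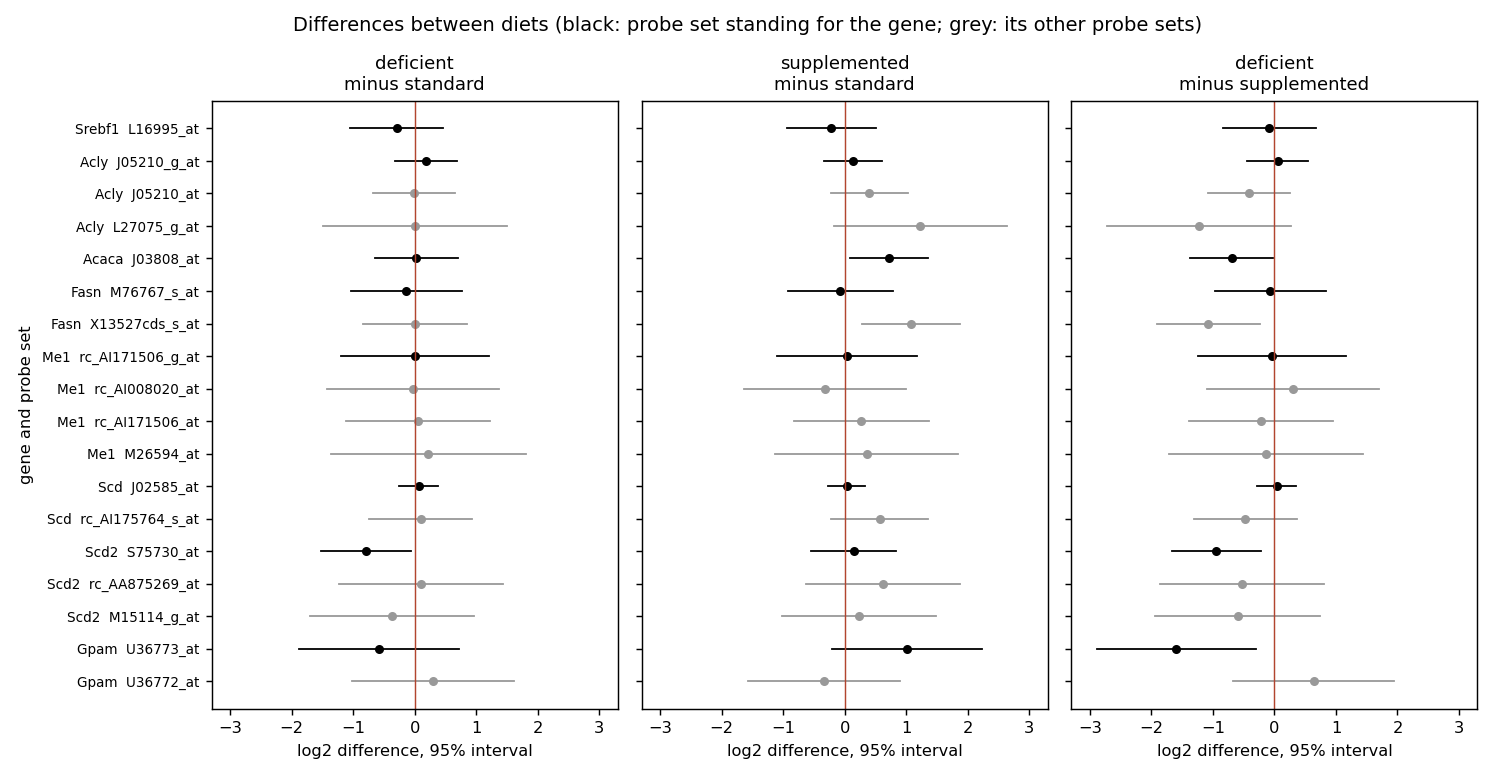
Difference between diets on the log2 scale with its 95% interval from limma, for the 18 tested probe sets in rows and the 3 comparisons in columns, with the probe set that stands for a gene in black. The intervals that leave out 0 are those of S75730_at of Scd2 (deficient minus standard and deficient minus supplemented), Acaca and X13527cds_s_at of Fasn (supplemented minus standard and deficient minus supplemented) and U36773_at of Gpam (deficient minus supplemented), and 0 of the 18 sets passed the adjusted threshold.

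Variation among arrays of the same diet was examined next, since it was wide in several members. Each gene was read by its brightest tested probe set, which for Fasn was M76767_s_at. The other Fasn set, X13527cds_s_at, was not paired with the other genes, so the pairs of Fasn hold for M76767_s_at only. With diet means removed, Pearson's r between Fasn and Acly was 0.923 over the 14 arrays, and Spearman's rho was 0.930 (permutation within diets, p = 0.00012, adjusted p = 0.00336 over 28 pairs). Leaving out arrays 14 (deficient) and 8 (standard), which lay farthest from the Fasn median, gave r = 0.908. Fasn and Scd correlated with r = 0.877 and rho = 0.899 (permutation adjusted p = 0.0127), and r was 0.818 without the same arrays. For Acly and Scd r was 0.787 and rho 0.833 (permutation adjusted p = 0.0290), with r = 0.739 when standard arrays 7 and 10 were left out.

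These were the 3 of 28 pairs that passed. The number was 1 without supplemented array 5 or without deficient array 14, and 1 without arrays 5, 10 and 13 together. When the Gapdh ratio was also taken out, the 3 correlations were 0.957, 0.876 and 0.831. Of the 28 pairs 8, or 28.6%, had r at or above 0.5, where 8.40% of all pairs of tested probe sets did. The median r was 0.356 among the members and -0.0022 over all pairs, and 23 of the 28 were above 0. Genes on the same arrays share RNA and scaling, so the pairs are not independent of one another.

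Srebf1 lay nearest to this group of 3, with r = 0.657 to Scd (permutation adjusted p = 0.132), 0.574 to Fasn and 0.534 to Acly (adjusted p = 0.185 each), which did not pass. Me1 and Gpam had r = 0.679 (permutation adjusted p = 0.266) and Acaca and Gpam 0.617 (adjusted p = 0.185). Without arrays 8 and 9, which set the range of Me1, its r with Gpam was 0.457. Scd2, read by S75730_at, was near 0 with Fasn (0.066), Acly (-0.0001) and Scd (0.110). Its other tested sets, which did not follow S75730_at, were not paired with the other genes.

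**Figure D3:**
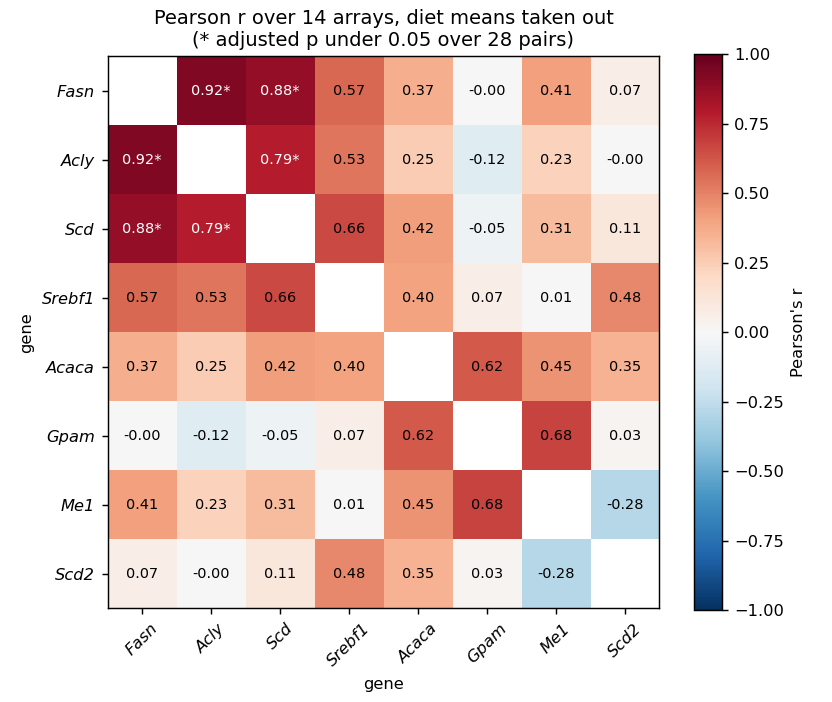
Pearson's r between each pair of the 8 genes (brightest tested probe set of each) over 14 arrays after diet means were taken out. An asterisk marks where the permutation test passed after adjustment over 28 pairs. Fasn, Acly and Scd form the block with asterisks, at 0.92, 0.88 and 0.79.

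Array by array, standard array 6 had 8 of the 8 genes above their own mean, with a mean deviation of 0.64 on the log2 scale. Supplemented array 5 had 7 of 8 above, also with a mean deviation of 0.64. Standard arrays 7 and 8 had 1 of 8 above each, with mean deviations of -0.49 and -0.64. Arrays of the standard diet were thus at both ends. The log2 Gapdh ratio of these arrays was -0.12 on array 5, 1.53 on array 6, 1.36 on array 7 and 1.60 on array 8. The part of RNA quality in these mean deviations was not tested.

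**Figure D4:**
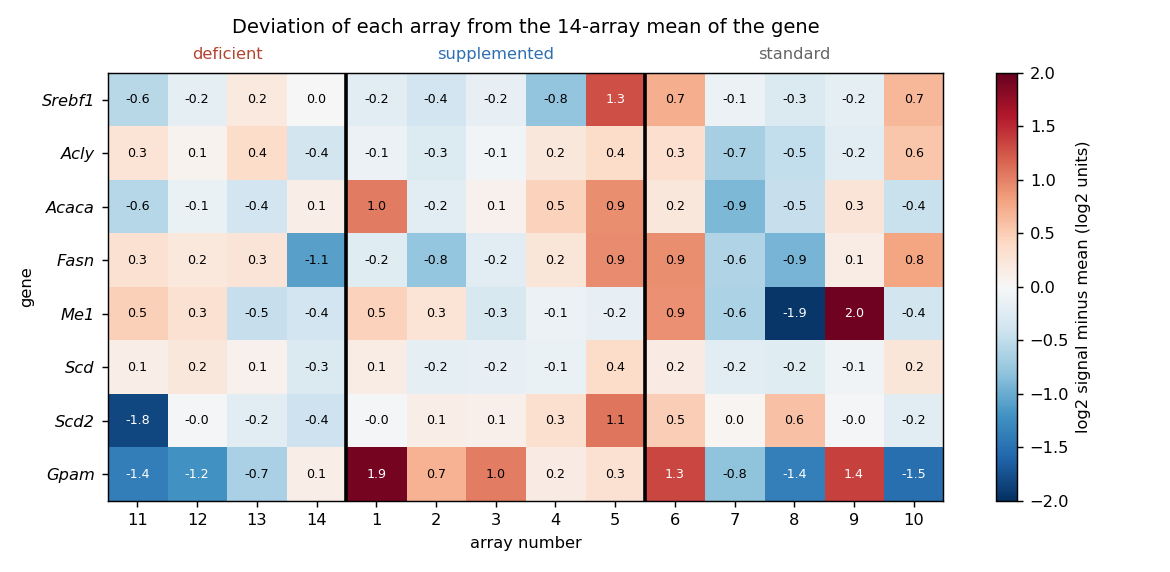
Deviation of each array from the 14-array mean of the gene, in log2 units, with genes in rows and arrays in columns grouped by diet. Standard array 6 is above the mean in 8 of 8 genes, and standard arrays 7 and 8 are below it in 7 of 8 genes each.

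The 5 genes outside the members with the pattern most like that of Fasn, by within-diet r over the 14 arrays, were Pnpla3 (0.966), the hyaluronidase gene Hyal2 (0.901), Tagln3 (0.884), Cpsf4, which encodes a subunit of the polyadenylation machinery (0.865), and Cox6a1, which encodes a subunit of cytochrome c oxidase (0.859). They were picked as the highest values of r with M76767_s_at of Fasn, so no test is given. Pnpla3 (rc_AI639525_at) had 2056, 1852, 1737 and 345 units on deficient arrays 11 to 14, 1291, 483, 671, 1531 and 2496 units on supplemented arrays 1 to 5, and 1998, 482, 272, 711 and 2294 units on standard arrays 6 to 10. Deficient array 14 and standard arrays 7 and 8 were low in Pnpla3 as they were in Fasn. Its deficient minus standard difference was 0.54 ± 0.68 (SE) and did not pass (limma adjusted p = 0.999). The ranges of the other 4 genes were narrower, and Hyal2 ran from 126 to 204 units on the deficient, from 140.1 to 228 units on the supplemented and from 149 to 224 units on the standard arrays.

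Of 10 differences between probe sets of the same gene, 3 passed the permutation test of r with the Gapdh ratio after adjustment, those of Fasn, of Gpam and 1 of the 3 of Me1. The other 7 did not pass, with r between -0.367 and 0.582, among them both of Scd2 (r = -0.107 and -0.027). The log2 difference between M76767_s_at and X13527cds_s_at of Fasn was larger on arrays with a higher Gapdh ratio (r = 0.774, rho = 0.802, permutation p = 0.00133 and 0.00099, adjusted p = 0.00665 and 0.00495 over 10 such differences). Without arrays 10 and 13, which have the highest ratios, r was 0.520, and within diets it was 0.632 (permutation p = 0.0422, adjusted p = 0.141). The relation for Fasn therefore did not pass within diets after adjustment.

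For Gpam, U36773_at minus U36772_at was smaller where the ratio was higher (r = -0.853, rho = -0.842, permutation adjusted p = 0.0015 and 0.0030). It kept r = -0.900 without those arrays and r = -0.722 within diets (permutation adjusted p = 0.0326). For Me1, rc_AI171506_g_at minus M26594_at had r = 0.673 (rho = 0.578, permutation adjusted p = 0.0253 and 0.0822), 0.611 without those arrays and 0.779 within diets (adjusted p = 0.0320). Of the single sets 0 of 18 passed that test after adjustment. Among the sets that did not pass were X13527cds_s_at of Fasn (r = -0.717, rho = -0.692, permutation adjusted p = 0.0549 and 0.0699 over 18 sets), Acaca (r = -0.685, rho = -0.653, adjusted p = 0.0611 and 0.0834) and U36773_at of Gpam (r = -0.624, rho = -0.741, adjusted p = 0.0954 and 0.0607). Within diets these were -0.490, -0.456 and -0.388 (adjusted p = 0.698, 0.698 and 0.781), and without arrays 10 and 13 they were -0.604, -0.714 and -0.547. M76767_s_at of Fasn, J05210_g_at of Acly and J02585_at of Scd had r = 0.131, 0.298 and 0.093 with the ratio.

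**Figure D5:**
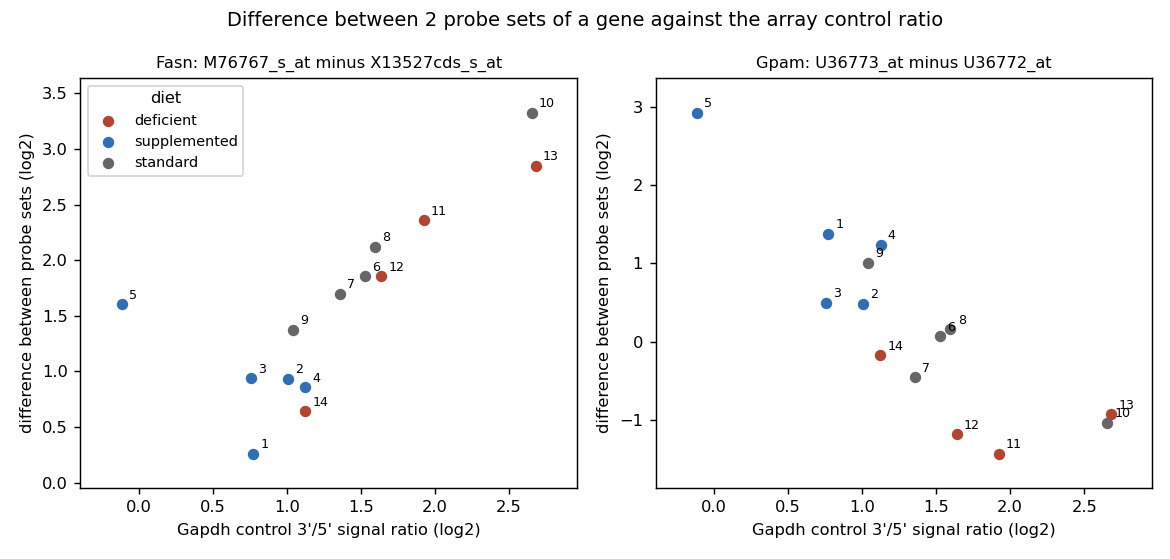
Difference in log2 signal between 2 probe sets of Fasn (left) and of Gpam (right) against the log2 ratio of the 3' to the 5' control probe set of Gapdh, with each point an array labelled by its number and coloured by diet. The Fasn difference is larger and the Gpam difference smaller at higher ratios (r = 0.774 and -0.853), and supplemented arrays lie at the low ratios.

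Other genes of the pathway were taken from 4 lists, each gene with its brightest tested probe set. Supply of NADPH and acetyl-CoA had 6 tested genes of 10, elongation with other desaturation and its electron donors 5 of 11, acyl-CoA and glycerolipid synthesis 8 of 13 and regulators of lipogenic transcription 14 of 21. limma called 0 genes of these lists in any comparison. Between the deficient and the standard diet the medians of the lists were 0.03, 0.16, 0.04 and 0.02. There 0 genes were at an unadjusted p under 0.05, where 3.00% of all tested probe sets were. The citrate carrier gene Slc25a1 was at 0.18 ± 0.23 (SE), the pentose phosphate enzyme gene Tkt at 0.24 ± 0.28, the liver pyruvate kinase gene Pklr at -0.0045 ± 0.35 and the isocitrate dehydrogenase gene Idh1 at 0.02 ± 0.16.

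Among genes of elongation and electron supply, Elovl5, an elongase gene, was at 0.16 ± 0.24 (SE) for deficient minus standard, Cyb5a at 0.01 ± 0.27, Cyb5r3 at 0.20 ± 0.24 and Hsd17b12 at -0.06 ± 0.40. Of the acyl-CoA synthetase genes, Acsl1 was at 0.0096 ± 0.16, Acsl5 at 0.02 ± 0.21, Acsl3 at 0.41 ± 0.22 and Acsl4 at 0.17 ± 0.21. Between the supplemented and the standard diet 0 of 6 genes of NADPH and acetyl-CoA supply, 1 of 5 of elongation and electron supply, 2 of 8 of acyl-CoA and glycerolipid synthesis and 0 of 14 regulators were at an unadjusted p under 0.05 (limma), where 8.90% of all probe sets were. The 3 were Acacb, which encodes the mitochondrial acetyl-CoA carboxylase (0.79), Acsl3 (0.47) and Plin2, a lipid droplet coat gene (-0.41). Insig1, which holds SREBP back in the endoplasmic reticulum and is itself a target of it, was at 0.46 ± 0.27 for deficient minus standard, and the nuclear receptor genes Nr1h3, Nr1h2 and Rxra were at 0.03 ± 0.19, 0.08 ± 0.20 and -0.06 ± 0.26.

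Within diets, some of these genes followed M76767_s_at of Fasn and others went against it. In the supply list 3 of 6 genes had r at or above 0.5 with Fasn (Tkt 0.755, Slc25a1 0.721 and Pklr 0.703). In the elongation list 2 of 5 did, and in the glycerolipid list 2 of 8, Acsl5 at 0.744 and Pnpla3, already named above. Among the regulators 3 of 14 did (with Insig1 at 0.779), while Usf2 was at -0.600, Irs1 at -0.418 and Hnf4a at -0.399. Over all other tested probe sets 12.7% reached that value, and the median was 0.02. The medians of the lists were 0.45, 0.05, -0.03 and -0.01.

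Fat tissue also makes these enzymes, so its markers were set beside them. Of 9 markers 4 were tested, with a summed signal of 405 to 615 units on the deficient, 455 to 1096 units on the supplemented and 482 to 644 units on the standard diet. Plin1 and Fabp4, which mark fat cells, were on the array but too dim for the filter. With Fasn within diets the 4 tested markers had r = 0.740 (Lpl), 0.526 (Lep), 0.486 (Lipe) and 0.225 (Cfd), and their part in the shared variation was not tested. The 4 tested of 6 macrophage markers summed to 627 to 735 units on the deficient, 487 to 1028 units on the supplemented and 454 to 768 units on the standard diet. limma called 0 markers of either list in any comparison. At an unadjusted p under 0.05 were Lep (deficient against supplemented) and Clec4f (supplemented against standard and deficient against supplemented). Of all tested probe sets 8.90% were at that level between the supplemented and the standard diet, and 12.9% between the deficient and the supplemented diet.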

How the data were processed

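The deposited values are probe set intensity values on a linear scale, 1 column for each of 14 arrays. In the table deposited by the authors each array had a trimmed mean of 150.3 units. Which software made the signals, with what settings, is not given in the sources here, nor are detection calls. Because array medians differed by up to 1.91 times, log2 values were quantile normalised over the probe sets other than the 59 controls. The floor was the pooled 20th percentile and the filter the pooled 40th percentile of the mean (14.3 units), which left 5132 probe sets. Gene symbols were those of GEO's platform annotation, updated through gene IDs to the current rat gene table: 7006 probe sets had 1 symbol, 308 several and 1426 none.

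Diets were compared with limma 3.58.1 under R 4.3.3 (eBayes after lmFit, with a mean-dependent trend, all 14 arrays in 1 model, two-sided, Benjamini-Hochberg over the 5132 probe sets). The tested probe set with the highest mean stood for a gene. Correlations used residuals from diet means and 100000 permutations within diets, and pooled relations to array measures free permutations (numpy 2.4.6). The procedure was tested on simulated data. The members and lists were chosen with earlier results of these data known. Named genes were every member, the first 4 measured genes of each list as written, and the 5 genes most like Fasn. Other genes in the text (such as Acacb, Plin2 and the fat markers) were chosen after their values were seen. Alternatives covered scaling, floor, filter, array weights, the model, the RNA quality ratios, the probe set of a gene and each array left out. Alternatives for the correlated pairs were added after seeing the data.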

Additional observations from a re-analysis of the deposited data

Results flagged for a closer look

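Of 54 groups of 4 or 5 arrays (18 probe sets on 3 diets), 2 held an array whose gap to the nearest other, divided by the range of the group, was above Dixon's 95% critical value, which by its definition flags about 1 in 20 groups by chance. In Fasn (M76767_s_at), deficient array 14 was at 766 units, below the other deficient arrays at 1881 to 1998 units. In Scd2 (M15114_g_at), standard array 6 was at 108 units, above the other standard arrays at 10.6 to 19.4 units. Deficient array 14 was also the lowest deficient array in the brightest sets of Acly and Scd and in Pnpla3. It was not the lowest in X13527cds_s_at of Fasn or in the brightest sets of the other member genes. In Acaca and in U36773_at of Gpam it was the highest deficient array.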

How the results depend on the processing

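No member probe set passed the adjusted threshold under any alternative: 0 of 657 for the 8 genes and X13527cds_s_at of Fasn (lowest adjusted p = 0.113, Gpam, deficient minus supplemented, array weights) and 0 of 636 for the other probe sets (lowest 0.264). No paired analysis was possible because array numbers run on through the diets and none is shared. Over the whole array, the deficient against supplemented comparison called 0 probe sets, in place of 1, with values as deposited, no filter, a filter at the 60th percentile, only the 2 diets in the model, either quality ratio as a covariate, or without arrays 5, 10 and 13, and the F-test likewise 0 under each of these that applies to it. Array weights called 1 between the supplemented and the standard diet. Leaving out each array gave 0 to 4 (deficient against supplemented), 0 to 3 (F-test) and 0 to 2 (supplemented against standard) calls. The 3 correlated pairs became 5 with arrays centred on their median, 1 without arrays 5, 10 and 13, and 1 to 3 with an array left out.

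Small differences changed sign. With values as deposited, Acaca and Scd were at -0.050 and -0.061 (deficient minus standard), and Scd at -0.12 (supplemented minus standard). With arrays centred on their median, supplemented minus standard was -0.15 (Acly), -0.040 (Me1) and -0.28 (Scd), and deficient minus supplemented 0.17 (Fasn), 0.15 (Me1) and 0.19 (Srebf1). Array weights gave Fasn 0.10 for deficient minus standard. They gave -0.0065 (Scd) and -0.039 (Scd2) for supplemented minus standard, and 0.30 (Fasn), 0.027 (Me1) and 0.10 (Srebf1) for deficient minus supplemented. With the Gapdh ratio, supplemented minus standard was 0.15 (Fasn), -0.30 (Me1) and -0.10 (Scd2), and deficient minus supplemented -0.30 (Acly), 0.37 (Me1), -0.020 (Scd) and 0.12 (Srebf1). With the beta-actin ratio these were 0.20 (Fasn) and -0.32 (Me1), and -0.28 (Acly), 0.54 (Me1) and -0.12 (Scd). Without arrays 5, 10 and 13 they were -0.0056 (Me1) and -0.14 (Scd2), and 0.055 (Fasn), 0.063 (Me1) and 0.15 (Srebf1). Averaging the probe sets of a gene gave Fasn 0.51 for supplemented minus standard, and Acly -0.53 and Scd -0.22 for deficient minus supplemented. The causes of these changes were not tested.

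With each array left out, deficient minus standard ran from -0.39 to 0.20 (Fasn), -0.14 to 0.15 (Acaca), -0.48 to 0.49 (Me1) and -0.25 to 0.28 (X13527cds_s_at). Supplemented minus standard ran from -0.32 to 0.14 (Fasn), -0.0098 to 0.29 (Acly), -0.44 to 0.53 (Me1), -0.057 to 0.10 (Scd) and -0.039 to 0.25 (Scd2). Deficient minus supplemented ran from -0.26 to 0.27 (Fasn), -0.043 to 0.20 (Acly), -0.20 to 0.11 (Me1), -0.028 to 0.14 (Scd) and -0.27 to 0.26 (Srebf1). The 7 differences at an unadjusted p under 0.05 kept their sign over their 23 or 24 alternatives. They were picked by their p in these same arrays, which the alternatives largely share, so a kept sign is no independent support. Other probe sets of a gene were not among these alternatives on their own, and for Gpam the other tested set had the opposite sign. Deficient minus supplemented ran from -1.93 to -0.48 (Gpam), -1.14 to -0.55 (Scd2), -0.91 to -0.28 (Acaca) and -1.27 to -0.44 (X13527cds_s_at of Fasn), deficient minus standard from -1.03 to -0.35 (Scd2), and supplemented minus standard from 0.38 to 0.90 (Acaca) and 0.57 to 1.35 (X13527cds_s_at). There are no detection calls, so dim sets such as those of Acaca, Scd2 and Gpam may lie near background.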
